A study of Mus musculus with 2 samples.

Results

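The 10 genes described here carry the steroid and peptide hormone output of Leydig cells, the interstitial cells of the testis: Scarb1, Star, Cyp11a1, Cyp17a1, Hsd3b1, Hsd3b6, Hsd17b3, Insl3, Lhcgr and Nr5a1. They were taken by gene symbol from a deposited table of 53801 genes, and 10 of 10 were found, each in 1 row. RNA was measured in 2 libraries of mouse spermatocytes from testis, 1 labelled as Smc1b knockout with SMC1alpha overexpression and 1 labelled Smc1b wild type. Both proteins are forms of 1 subunit of the cohesin ring, SMC1beta being made in meiotic cells and SMC1alpha in cells of all kinds. The labels give neither strain, age nor number of animals, and they name no promoter or cell type for the SMC1alpha overexpression. They also do not explain the "4N" that both titles carry. The protocol text, the same for both libraries, speaks of RNA from sorted spermatocytes as well as from whole testis, while the cell type label of both is spermatocytes; it gives neither the gate nor the purity of the sort. Cells that lack SMC1beta and have no extra SMC1alpha were not analysed here. Losing SMC1beta and gaining SMC1alpha thus cannot be told apart.

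Values are TPM, the share of all transcripts corrected for gene length, and each library sums to 1000000. TPM keeps no read counts, and the depth of the values is unknown. With 1 library per genotype there is no spread between animals, no test and no p-value, and genotype and library cannot be told apart. "Higher" and "lower" therefore describe these 2 libraries. A log2 ratio here is the log2 of the quotient of both libraries after 1 TPM was added to each, with wild type below, so differences of low genes come out too small. A TPM ratio is the plain quotient. Smc1b, the gene named as deleted, measured 62.9 TPM in the knockout-labelled library and 76.1 TPM in the wild-type library, and its direction turned under each of 3 rescalings. Smc1a measured 28.8 TPM in the knockout-labelled library and 0.51 TPM in the wild-type library. The Smc1b value goes against a plain reading of the label, while a gene-level TPM cannot show whether a deleted part is present. The library is therefore named by its label throughout.

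Leydig cells lie between the seminiferous tubules, outside the epithelium in which spermatocytes develop, and are the testis' source of testosterone. Luteinizing hormone acts on its receptor on these cells and raises cyclic AMP. Cholesterol is taken up, carried to the inner mitochondrial membrane, cut to pregnenolone and then converted to testosterone by enzymes of mitochondria and endoplasmic reticulum. The RNA came from a bulk sample. Fewer cells of a type and less RNA per cell cannot be told apart in it.

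All 10 genes had more TPM in the knockout-labelled library than in the wild-type library, and 9 of them passed 2-fold upward on the log2 ratio scale, with 0 downward. A gene was counted as tested when either library gave it 1 TPM. Of all 23148 such genes, 15.0% passed 2-fold upward and 19.3% downward. Among the 15000 protein-coding ones, 18.7% were higher and 16.5% lower. The same 9 were also at least 4-fold higher, a mark that 4.68% of the protein-coding genes passed. All 10 members reached 1 TPM in the knockout-labelled library, and 9 did so in the wild-type library. The median log2 ratio of the 10 was 3.35, against -0.22 for all genes tested and -0.05 for protein-coding genes. Together they held 1694.5 TPM in the knockout-labelled library and 79.4 TPM in the wild-type library, a TPM ratio of 21.3. Insl3 alone made up 79.8% of that sum in the knockout-labelled library and 54.5% in the wild-type library. Without Insl3 the sums were 342 TPM in the knockout-labelled library and 36.2 TPM in the wild-type library, a ratio of 9.46.

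**Figure D1:**
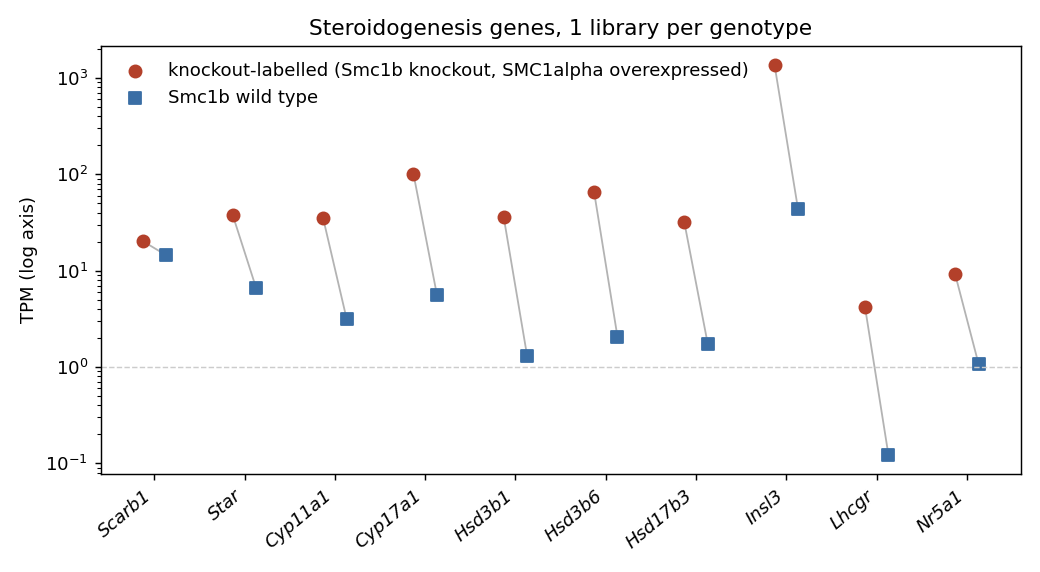
TPM of each of the 10 genes on a log axis, ordered from cholesterol uptake to hormone, receptor and regulator; red circles are the knockout-labelled library and blue squares the wild-type library, joined by a line for each gene, and the dashed line marks 1 TPM. Every circle lies above its square, with the smallest gap for Scarb1 (20.4 TPM knockout-labelled, 14.5 TPM wild type) and the top level for Insl3 (1352 TPM knockout-labelled, 43.3 TPM wild type).

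Cholesterol entry was the step at which the libraries differed least. Scarb1 (ENSMUSG00000037936; mm10 chromosome 5, 125277087 to 125341094, minus strand) encodes SR-B1, the receptor that takes up cholesterol from high-density lipoprotein and is also made in liver, adrenal and Sertoli cells. It measured 20.4 TPM in the knockout-labelled library and 14.5 TPM in the wild-type library, a log2 ratio of 0.46, and it was the only member under 2-fold. Of the protein-coding genes tested, 32.7% had a higher log2 ratio than Scarb1. It supplied 1.20% of the members' summed TPM in the knockout-labelled library and 18.3% in the wild-type library, where only Insl3 stood higher. Gm42633, a transcript of unsettled type inside its span, was at 0.24 TPM in the knockout-labelled library and 0.48 TPM in the wild-type library.

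Star (ENSMUSG00000031574; chromosome 8, 25806555 to 25815982, plus strand) encodes the protein that moves cholesterol into mitochondria, the rate-limiting step of acute steroid production. It measured 37.5 TPM in the knockout-labelled library and 6.54 TPM in the wild-type library, a TPM ratio of 5.74 and a log2 ratio of 2.35. Cyp11a1 (ENSMUSG00000032323; chromosome 9, 58006411 to 58027023, plus strand) encodes the enzyme that cleaves the cholesterol side chain to make pregnenolone. It measured 35.1 TPM in the knockout-labelled library and 3.18 TPM in the wild-type library, a log2 ratio of 3.11. A long non-coding RNA that overlaps its span, Gm17322, was at 0.11 TPM in the knockout-labelled library and 0.028 TPM in the wild-type library. In the knockout-labelled library Star and Cyp11a1 were therefore at nearly equal levels, with a Star to Cyp11a1 ratio of 1.07, while that ratio was 2.06 in the wild-type library. Such ratios within a library do not depend on how a library is scaled.

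The enzymes after pregnenolone had higher log2 ratios than the cholesterol steps. Cyp17a1 (ENSMUSG00000003555; chromosome 19, 46667165 to 46672974, minus strand) encodes the hydroxylase and lyase that turns C21 steroids into androgens. It measured 101.7 TPM in the knockout-labelled library and 5.65 TPM in the wild-type library, a log2 ratio of 3.95. Among the 5 steroid enzymes of the set it was the most abundant in both libraries. Hsd17b3 (ENSMUSG00000033122; chromosome 13, 64058266 to 64089230, minus strand) encodes the last enzyme, which reduces androstenedione to testosterone. It measured 31.8 TPM in the knockout-labelled library and 1.74 TPM in the wild-type library, a log2 ratio of 3.58. The Hsd17b3 to Cyp17a1 ratio was 0.31 in the knockout-labelled library and 0.31 in the wild-type library. The Cyp17a1 to Cyp11a1 ratio was 2.90 in the knockout-labelled library and 1.78 in the wild-type library. The 5 enzymes summed to 270.8 TPM in the knockout-labelled library and 13.9 TPM in the wild-type library, and the lowest of them in the knockout-labelled library (31.8 TPM) lay above the highest of them in the wild-type library (5.65 TPM).

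Hsd3b1 and Hsd3b6 encode 3 beta-hydroxysteroid dehydrogenases, which convert pregnenolone and its derivatives into the hormonally active delta-4 series. Hsd3b6 (ENSMUSG00000027869; chromosome 3, 98805504 to 98814443, minus strand) measured 66.4 TPM in the knockout-labelled library and 2.06 TPM in the wild-type library, a log2 ratio of 4.46. Hsd3b1 (ENSMUSG00000027871; chromosome 3, 98852194 to 98859794, minus strand) measured 35.9 TPM in the knockout-labelled library and 1.30 TPM in the wild-type library, a log2 ratio of 4.01. Hsd3b6 was the higher of the pair in both libraries, 1.85 times Hsd3b1 in the knockout-labelled library and 1.59 times in the wild-type library.

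Another family member on the same chromosome had another pattern. Hsd3b2 measured 14.7 TPM in the knockout-labelled library and 18.1 TPM in the wild-type library, its log2 ratio being -0.28 as deposited and above 0 under 2 of 3 rescalings. It was 0.22 times Hsd3b6 in the knockout-labelled library and 8.77 times Hsd3b6 in the wild-type library. Of 9 listed family members 7 matched a symbol. Hsd3b7, an enzyme of bile acid synthesis, measured 1.09 TPM in the knockout-labelled library and was listed at 0 in the wild-type library, and Hsd3b3, Hsd3b4 and Hsd3b5 were under 1 TPM in both libraries. Summed over the 7 genes, the family had a log2 ratio of 2.40. The longest reading frames of Hsd3b1 and Hsd3b6 in GENCODE M21 transcripts, 1122 bases each, were 90.0% identical, and those of Hsd3b2 and Hsd3b6 were 94.4% identical. Of all stretches of 75 bases, the read length, 98.6% in Hsd3b1, 92.4% in Hsd3b6 and 86.6% in Hsd3b2 occurred in no other gene's transcripts. How the authors' quantification divided reads that fit several copies is not given in the sources used here, so single values of this family are uncertain.

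Insl3 had the highest log2 ratio of the set. Insl3 (ENSMUSG00000079019; chromosome 8, 71689214 to 71690575, plus strand) encodes the relaxin-like peptide hormone of Leydig cells, which acts in testis descent. It measured 1352 TPM in the knockout-labelled library and 43.3 TPM in the wild-type library, a TPM ratio of 31.3 and a log2 ratio of 4.93. Hsd3b6 and Lhcgr had higher TPM ratios, 32.2 and 34.4, so the rank of Insl3 depends on the TPM added. Of the 15000 protein-coding genes tested, 3 had a higher log2 ratio. By TPM it ranked 13 among 22058 protein-coding genes in the knockout-labelled library and 3312 in the wild-type library. It was 13.3 times the level of Cyp17a1 in the knockout-labelled library and 7.65 times in the wild-type library.

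The Insl3 locus lies inside the span of Jak3, a kinase gene of the same strand. Of the 549 stretches of 75 bases in the Insl3 transcript, 330 (60.1%) also occur in Jak3 transcripts, so part of its reads could be given to either gene. Jak3 itself measured 3.30 TPM in the knockout-labelled library and 2.10 TPM in the wild-type library, a log2 ratio of 0.47. Insl3 is also the shortest member at 623 bases, where the members' median was 2360 bases and that of protein-coding genes tested was 3978 bases.

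The receptor and the transcription factor of the set were the least abundant in the knockout-labelled library. Lhcgr (ENSMUSG00000024107; chromosome 17, 88741549 to 88791976, minus strand) encodes the luteinizing hormone receptor. It measured 4.25 TPM in the knockout-labelled library and 0.12 TPM in the wild-type library. Its TPM ratio of 34.4 was the highest of the 10 and rests on a wild-type level below 1 TPM, and its log2 ratio was 2.22. With 5 TPM added instead of 1 the log2 ratio was 0.85, under 2-fold. Nr5a1 (ENSMUSG00000026751; chromosome 2, 38692656 to 38714542, minus strand) encodes steroidogenic factor 1, a nuclear receptor that activates steroid enzyme genes and is also made in Sertoli and adrenal cells. It measured 9.15 TPM in the knockout-labelled library and 1.07 TPM in the wild-type library, a log2 ratio of 2.30. Its antisense transcript Nr5a1os was at 0.52 TPM in the knockout-labelled library and 0.20 TPM in the wild-type library. The libraries were made strand-specific per the labels, but whether quantification used strand is not stated.

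Ordered by level in the knockout-labelled library, the genes ran Insl3, Cyp17a1, Hsd3b6, Star, Hsd3b1, Cyp11a1, Hsd17b3, Scarb1, Nr5a1 and Lhcgr. In the wild-type library the order was Insl3, Scarb1, Star, Cyp17a1, Cyp11a1, Hsd3b6, Hsd17b3, Hsd3b1, Nr5a1 and Lhcgr. Without replicates it cannot be said which neighbours in either order differ beyond their spread. Star, Hsd3b1, Cyp11a1 and Hsd17b3 lay within 31.8 to 37.5 TPM in the knockout-labelled library. The 10 genes lie on 8 autosomes. The protein-coding medians of those chromosomes ranged from -0.19 (chromosome 5) to -0.02 (chromosome 3), against log2 ratios of 0.46 to 4.93 for the members.

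**Figure D2:**
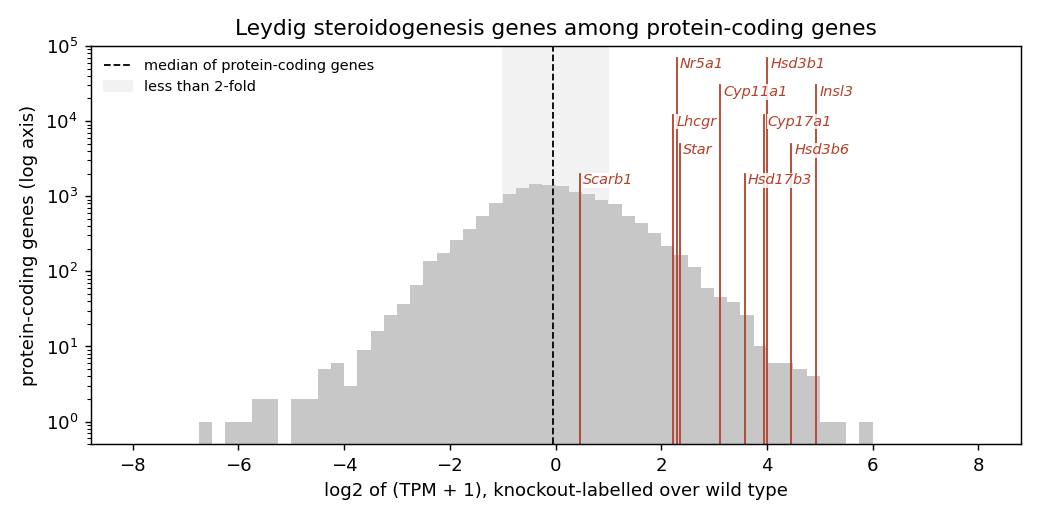
Histogram of the log2 ratio (knockout-labelled over wild type) for the 15000 protein-coding genes that reached 1 TPM in either library, with the number of genes on a log axis; red lines mark the 10 genes, the dashed line the median of -0.05 and the shaded band less than 2-fold. Scarb1 falls in the band at 0.46, and the other members lie between 2.22 and 4.93.

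Promoter sequences were looked at because 9 of the 10 genes differed in 1 direction and 1 of them encodes a DNA-binding activator. RefSeq windows of 300 bases (GRCm38.p6, 250 before to 50 after a start) matched 6 of the 10 genes, in 7 windows: Cyp11a1, Hsd17b3, Hsd3b1, Hsd3b6, Insl3 and Lhcgr. The 2 windows of Cyp11a1 lie at other starts and do not hold the start that the expression table gives for it, so that start was not searched. The other 5 windows, 1 per gene, hold the table's start and were read. The letters CAAGGTCA, the usual binding sequence of steroidogenic factor 1, occurred on neither strand in any of the 5 windows, and in 1.56% of all 32851 windows. The longer TCAAGGTCA, which contains it, was likewise in none of the 5 and in 0.42% of all windows. The letters AGATAA, of the type GATA factors bind, occurred in 2 of the 5 (Hsd3b1 and Hsd3b6) and in 11.2% of all windows. A shorter core that lies within CAAGGTCA, AAGGTC, was searched after these results were seen. It occurred on either strand in 1 of the 5 windows, that of Insl3, and in 12.3% of all windows. The Insl3 window holds it on both strands, as do 0.48% of all windows. These matches describe letters in these windows and not binding.

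The stretches before the annotated starts of these 3 genes are shown because they hold the matches, from the hormone with the highest level and the pair of paralogues. Each is given 5′ to 3′ on its gene's strand, with the matching letters in capitals. For Insl3 (chr8:71689002-71689213, plus strand, 212 bases) the capitals are AAGGTC and its reverse complement, beginning 98 and 52 bases before the start. For Hsd3b1 (chr3:98859795-98860044, minus strand, 250 bases) they are the reverse complement of AGATAA, 134 bases before the start. For Hsd3b6 (chr3:98814444-98814693, minus strand, 250 bases) they are AGATAA, 31 bases before the start.
Insl3: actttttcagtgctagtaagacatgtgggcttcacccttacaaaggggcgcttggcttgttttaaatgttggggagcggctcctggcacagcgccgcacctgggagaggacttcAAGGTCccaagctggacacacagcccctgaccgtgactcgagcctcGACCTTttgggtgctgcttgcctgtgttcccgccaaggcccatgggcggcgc
Hsd3b1: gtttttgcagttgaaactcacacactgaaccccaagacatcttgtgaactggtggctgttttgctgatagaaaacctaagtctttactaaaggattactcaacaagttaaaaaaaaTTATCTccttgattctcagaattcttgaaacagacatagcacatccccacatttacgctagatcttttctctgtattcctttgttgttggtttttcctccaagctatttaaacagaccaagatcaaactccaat
Hsd3b6: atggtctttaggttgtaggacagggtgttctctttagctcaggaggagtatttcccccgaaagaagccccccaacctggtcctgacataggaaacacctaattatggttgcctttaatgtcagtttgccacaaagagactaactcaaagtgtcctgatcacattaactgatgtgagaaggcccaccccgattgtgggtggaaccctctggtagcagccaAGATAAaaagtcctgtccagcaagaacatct

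Genes that work beside these enzymes were higher in part. Electron donors pass electrons to the steroid enzymes or supply their cofactor. Of the 7, 3 were 2-fold or more higher and 0 lower, with a median log2 ratio of 0.97. H6pd, which makes NADPH in the endoplasmic reticulum, measured 6.67 TPM in the knockout-labelled library and 0.20 TPM in the wild-type library. It reached 1 TPM only in the knockout-labelled library, so the filter itself fixed its direction. Por, the reductase that serves CYP17A1, measured 10.7 TPM in the knockout-labelled library and 3.22 TPM in the wild-type library. Fdxr, the mitochondrial reductase of the CYP11A1 chain, measured 14.9 TPM in the knockout-labelled library and 5.57 TPM in the wild-type library. Cyb5r3, the reductase of cytochrome b5, measured 28.4 TPM in the knockout-labelled library and 14.01 TPM in the wild-type library. Its log2 ratio of 0.97 lay just under 2-fold, while with 0.1 TPM added it was 1.01 and under the 3 rescalings 1.25 to 1.38, which makes 4 of the 7 higher. With 5 TPM added 1 of the 7 was. The rest of the list, Fdx1, Cyb5a and Cyb5b, had log2 ratios of 0.05, 0.24 and 0.54.

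Of 22 other steroid-metabolizing enzymes that matched a symbol, 15 reached 1 TPM. Among those, 7 were 2-fold or more higher and 0 lower, with a median log2 ratio of 0.64. That median depended on the filter and was 0.14 without one and 2.33 with a filter of 5 TPM. Of the 15, 4 were below 1 TPM in the wild-type library, Sult1e1 and Hsd17b11 among them. Another 2, among them Hsd11b1, were below it in the knockout-labelled library. For those genes the filter itself fixed the direction. With 5 TPM added 4 of the 15 were higher. Sult1e1, which inactivates oestrogen by sulfation, measured 27.3 TPM in the knockout-labelled library and 0.20 TPM in the wild-type library. Akr1cl, an aldo-keto reductase-like gene, measured 91.0 TPM in the knockout-labelled library and 5.85 TPM in the wild-type library. Hsd17b12 and Hsd17b11 had log2 ratios of 2.51 and 2.33. Hsd11b1, which regenerates active glucocorticoid and is known from rodent Leydig cells, went the other way at 0.43 TPM in the knockout-labelled library and 1.45 TPM in the wild-type library, and Srd5a3 had a log2 ratio of -0.56.

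The genes of cholesterol supply were mixed. Of 20, 8 were at least 2-fold higher and 3 lower, with a median log2 ratio of 0.88. Under the 3 rescalings 12 to 14 were higher and 0 to 2 lower, while the median of protein-coding genes rose to between 0.23 and 0.36. The share of all genes past 2-fold was not counted under them. Of the 20, 5 were below 1 TPM in the wild-type library, so the filter itself fixed their direction. Apoe, a lipoprotein component that macrophages also make, measured 44.1 TPM in the knockout-labelled library and 2.08 TPM in the wild-type library. The cholesterol exporter Abca1 measured 16.5 TPM in the knockout-labelled library and 1.11 TPM in the wild-type library. Tspo, an outer mitochondrial membrane protein, measured 7.98 TPM in the knockout-labelled library and 0.96 TPM in the wild-type library. Vdac1, a channel of the same membrane, had a log2 ratio of 2.14. Stard6, a relative of Star known from germ cells, was lower at 135.8 TPM in the knockout-labelled library and 354 TPM in the wild-type library. Osbpl2, an oxysterol-binding protein relative, had a log2 ratio of -1.33.

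The signalling chain after the luteinizing hormone receptor showed no shared direction. Of 19 genes, 5 were at least 2-fold higher and 8 lower, with a median log2 ratio of -0.24. Of the 19, 5 were below 1 TPM in the wild-type library, so the filter itself fixed their direction. Under each of the 3 rescalings 8 were higher and 6 lower and the median was positive, as was that of protein-coding genes. With a filter of 5 TPM 14 genes were left, of which 2 were higher and 8 lower, and the median was -1.14. Gnas, the stimulatory G protein, measured 98.4 TPM in the knockout-labelled library and 14.4 TPM in the wild-type library. The protein kinase A subunit Prkacb measured 16.01 TPM in the knockout-labelled library and 2.81 TPM in the wild-type library. The anchor protein Akap1 was lower at 3.96 TPM in the knockout-labelled library and 28.4 TPM in the wild-type library, and the cyclase Adcy6 was lower at 1.96 TPM in the knockout-labelled library and 13.5 TPM in the wild-type library. Arrb2, a receptor-desensitizing arrestin, and Pde8b, a phosphodiesterase, had log2 ratios of 1.96 and 1.58. Most of these genes are used by many cell types.

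Of 28 transcription factors known to act on Leydig genes, 24 reached 1 TPM, 13 of those were 2-fold or more higher and 0 lower, with a median log2 ratio of 1.07. Of the 24, 7 were below 1 TPM in the wild-type library, and with 5 TPM added 3 were higher. Wt1, a member of this list, is also among the Sertoli markers. The immediate early gene Fos measured 48.6 TPM in the knockout-labelled library and 5.56 TPM in the wild-type library, and Junb measured 23.3 TPM in the knockout-labelled library and 2.71 TPM in the wild-type library. Egr1 and Cebpb had log2 ratios of 2.28 and 1.80. Crem, which has an abundant germ cell form, measured 130.1 TPM in the knockout-labelled library and 209 TPM in the wild-type library. The log2 ratio of Sp1 was -0.22, with the opposite sign under each of 3 rescalings.

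Other markers of Leydig cells, and markers of other cells of the testis, differed in the same libraries. Of 8 further Leydig markers, 2 of which are also in the enzyme list above, 7 were 2-fold or more higher, with a median log2 ratio of 3.17 over the 8, and together the 8 summed to 477 TPM in the knockout-labelled library and 31.4 TPM in the wild-type library. The eighth, Hsd11b1, went the other way as given above, with a log2 ratio of -0.78, or -1.55 with 0.1 TPM added. Of the 8, 3 were below 1 TPM in the wild-type library, and Hsd11b1 was below it in the knockout-labelled library. For those genes the filter itself fixed the direction. Vcam1, an adhesion molecule, measured 102.9 TPM in the knockout-labelled library and 4.08 TPM in the wild-type library. The prostaglandin synthase Ptgds measured 155 TPM in the knockout-labelled library and 7.97 TPM in the wild-type library. Fabp3, a fatty acid carrier, measured 102.1 TPM in the knockout-labelled library and 9.27 TPM in the wild-type library. Of 4 markers of the fetal Leydig cell, 2 reached 1 TPM: Dlk1 was at 1.11 TPM in the knockout-labelled library and 0.054 TPM in the wild-type library, and for Cyp11b1 the log2 ratio was -0.30, with the opposite sign under 1 rescaling.

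**Figure D3:**
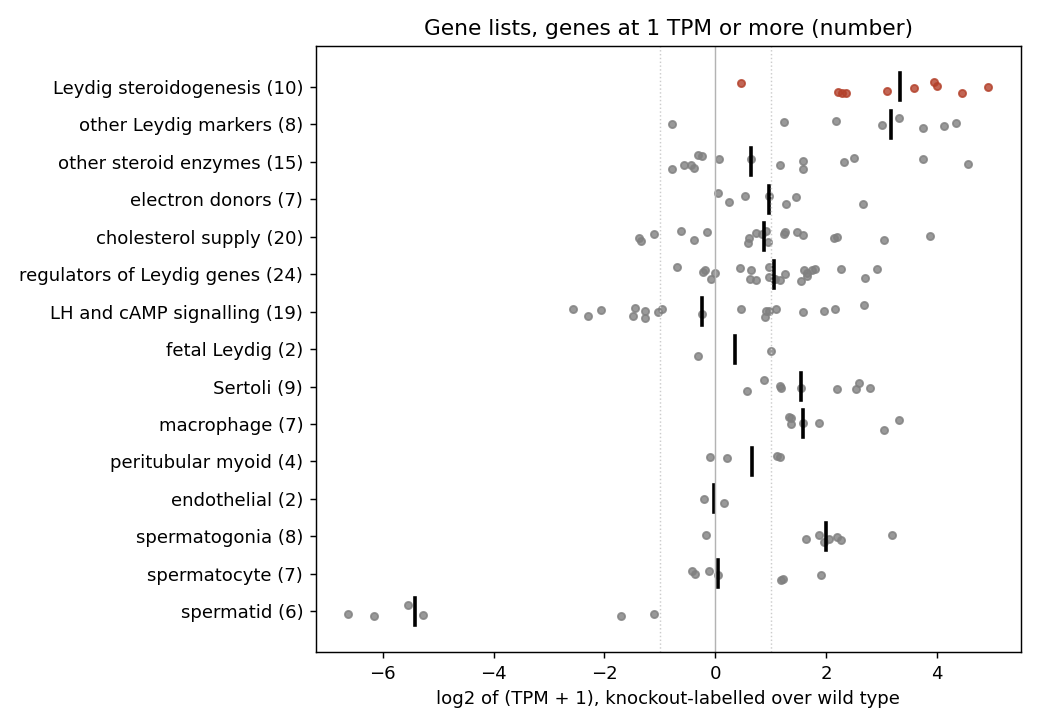
Log2 ratio (knockout-labelled over wild type) of each gene at 1 TPM or more, by list, with the number of genes in brackets; points are single genes, spread vertically only to be seen, black bars are list medians and dotted lines mark 2-fold. The Leydig steroidogenesis genes (red, median 3.35) and the other Leydig markers (median 3.17) lie furthest to the right, and the spermatid markers (median -5.41) furthest to the left. This order depends on the 1 TPM added. With 0.1 TPM added the macrophage median was 3.94, between the other Leydig markers (3.64) and the steroidogenesis genes (4.13). The 7 macrophage genes shown were all below 1 TPM in the wild-type library, so the filter itself fixed their direction.

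The 10 Sertoli markers, of which 9 reached 1 TPM and 7 were at least 2-fold higher, summed to 403 TPM in the knockout-labelled library and 62.4 TPM in the wild-type library. Of those 9, 3 were below 1 TPM in the wild-type library. Clu, Cldn11, Defb19 and Tsx led them with log2 ratios of 2.80, 2.59, 2.54 and 2.19. The 9 macrophage markers summed to 40.4 TPM in the knockout-labelled library and 3.14 TPM in the wild-type library, with C1qa listed at 0 in the wild-type library. The 7 that reached 1 TPM did so in the knockout-labelled library and not in the wild-type library, so the filter itself fixed their direction and no count is read from them. Cd74 and Lyz2 led them with log2 ratios of 3.32 and 3.04. The 8 spermatogonia markers summed to 60.7 TPM in the knockout-labelled library and 9.64 TPM in the wild-type library. The sum of 5 endothelial markers was 7.32 TPM in the knockout-labelled library and 6.53 TPM in the wild-type library. That of 5 peritubular myoid markers was 7.25 TPM in the knockout-labelled library and 4.0 TPM in the wild-type library.

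Markers of spermatocytes, the labelled cell type, were abundant in both libraries. The 7 markers, among them synaptonemal complex genes, summed to 2050 TPM in the knockout-labelled library and 1413 TPM in the wild-type library. Their median log2 ratio was 0.04: Sycp1, Hormad1 and Sycp3 were at 1.91, 1.23 and 1.18, and Spo11, Piwil1 and Sycp2 at -0.36, -0.42 and -0.11. The 6 spermatid markers summed to 59.1 TPM in the knockout-labelled library and 2310 TPM in the wild-type library. In the wild-type library the spermatid sum thus lay above the spermatocyte sum, which a label of spermatocytes alone does not convey. The summed ratio was 21.3 for the Leydig steroidogenesis genes, 15.2 for the other Leydig markers, 12.9 for macrophage, 6.46 for Sertoli, 6.30 for spermatogonia and 1.45 for spermatocyte markers. Without Insl3 that of the steroidogenesis genes was 9.46, below the other Leydig markers and the macrophage markers, from which no gene was left out. Of the 36.2 TPM then left in the wild-type library, Scarb1 held 14.5 TPM. The part of the other cells' RNA, or of the sort, in the values of the steroidogenesis genes was not tested.

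Scaling of TPM also bears on these values. The miscellaneous RNA class of the table, which holds abundant untranslated RNAs, took 37.7% of all TPM in the knockout-labelled library and 24.7% in the wild-type library. Protein-coding genes held 49.0% of all TPM in the knockout-labelled library and 62.6% in the wild-type library. Each of the 3 rescalings moved the knockout-labelled library up, so the deposited TPM gave the members' lowest ratios among the 4 scalings. Scarb1 had a log2 ratio of 0.87 at most, still under 2-fold, and the other 9 members lay above 2-fold under every scaling with 1 TPM added.

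**Figure D4:**
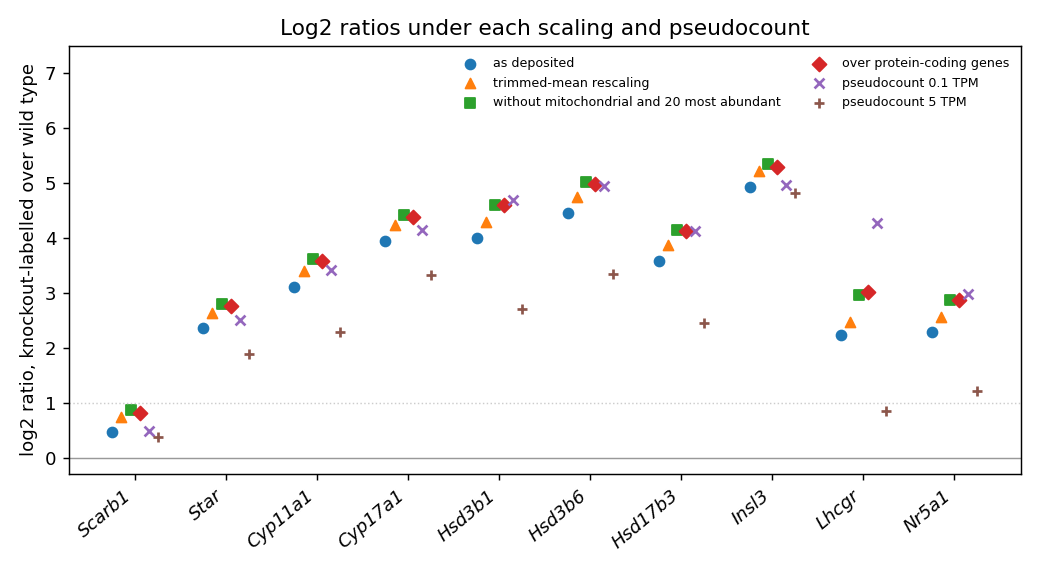
Log2 ratio (knockout-labelled over wild type) of each of the 10 genes as deposited, under 3 rescalings and with 0.1 or 5 TPM added in place of 1; the dotted line marks 2-fold and the grey line 0. All values lie above 0. Scarb1 stays between 0.38 and 0.87, and Lhcgr spans 0.85 to 4.28.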

How the data were processed

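The authors deposited 1 table of TPM per gene with 1 column per library, mapped to the samples by title. Per the file headers it also gives gene length in bases and G+C content in percent, which describe genes and not samples. Per the labels, RNA was depleted of ribosomal RNA and read single-end over 75 bases. Per the submitters' processing notes, kallisto 0.43.1, GSNAP, TopHat, bcl2fastq 2.19.1 and the mm10 build were used, with roles, order and filters not given in the sources used here. Coordinates are the table's, and 8 of 10 members have the same start and end in GENCODE M21 (GRCm38).

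Log2 ratios were computed with 1 TPM added, for genes that reached 1 TPM in either library. No test was run. Of rows sharing a symbol, that of higher mean TPM was kept. The members and lists were chosen with earlier results of these data known. All 10 members are named, with label-check genes, overlapping genes, the Hsd3b family and, per list, up to 4 genes with the largest absolute log2 ratio and up to 2 against the median. The rest of the electron donors are named as well. Likeness of pattern was not measured, since 2 libraries give 1 ratio. Promoters are from RefSeq, GRCm38.p6. Alternatives were other pseudocounts, filters, a 4-fold mark and 3 rescalings. These were by the trimmed mean of log2 ratios (30% cut at each end), without mitochondrial and the 20 most abundant genes, and over protein-coding genes. Code was tested on simulated data. Computation used pandas 2.3.3, NumPy 2.4.6 and Matplotlib 3.10.9 under Python 3.11.15.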

Additional observations from a re-analysis of the deposited data

How the results depend on the processing

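The count of 9 members at least 2-fold higher held under each rescaling, with 0.1 TPM added, without a filter and at 4-fold, and was 8 with 5 TPM added (Lhcgr at a log2 ratio of 0.85) and 8 of the 9 left by a filter of 5 TPM. The count at least 2-fold lower was 0 in these settings, and the members kept their direction. Neither outcome could have differed. Added TPM and filters cannot turn a direction, and each rescaling moved the knockout-labelled library up. The members' median log2 ratio of 3.35 was 4.13 with 0.1 TPM added, 2.37 with 5 TPM added, 3.63 by trimmed mean, 3.88 without mitochondrial and the 20 most abundant genes, 3.85 over protein-coding genes, 3.58 with a filter of 5 TPM and 3.11 without Insl3. The ratio of their summed TPM was 26.2, 28.3 and 27.3 under the 3 rescalings in that order, 21.3 with the filter of 5 TPM and 9.46 without Insl3. The protein-coding median moved to 0.23, 0.36 and 0.32 under the rescalings, for which the share of all genes past 2-fold was not counted. The signalling list's median turned to 0.047, 0.16 and 0.11 (-1.14 with the filter of 5 TPM) and the endothelial one to 0.38, 0.50 and 0.47, or 0.15 without a filter. Smc1b turned to 0.019, 0.13 and 0.078 and Sp1 to 0.074, 0.19 and 0.13. Hsd3b2 turned to 0.11 without abundant genes and 0.056 over protein-coding genes, and Cyp11b1 to 0.0040 without abundant genes. With the Hsd3b family as 1 value the log2 ratio was 2.40. The cause was not tested.

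No paired analysis was possible because each genotype has 1 library. Leaving out a replicate could not be run for the same reason. Depth is unknown, so levels below 1 TPM, such as Lhcgr in wild type, have no known precision.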

Other observations

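Genes next to the steroidogenesis genes on the chromosome were also looked at. The nearest protein-coding gene at 1 TPM or more was taken on each side of each member, a measure chosen after the members' values were seen, which gave 18 different genes. Of these, 4 passed 2-fold upward and 3 downward, with a median log2 ratio of -0.29 and a range of -2.57 to 1.79. These counts are near the shares among all protein-coding genes at 1 TPM or more, 18.7% upward and 16.5% downward. Ash2l, a histone methylation subunit gene whose span lies 14 bases beyond the end of Star, measured 94.8 TPM in the knockout-labelled library and 152 TPM in the wild-type library. On the other side of Star, Lsm1, an mRNA decay factor gene, measured 14.8 TPM in the knockout-labelled library and 34.1 TPM in the wild-type library, and Star itself 37.5 TPM in the knockout-labelled library and 6.54 TPM in the wild-type library. B3gnt3, 181 bases beyond Insl3, measured 1.51 TPM in the knockout-labelled library and 0.27 TPM in the wild-type library. Insl3 itself measured 1352 TPM in the knockout-labelled library and 43.3 TPM in the wild-type library.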
